A study of Mus musculus with 6 samples.

Results

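Proteins that bind RNA decide how a pre-mRNA is cut and joined, and how the finished message is moved, stored and degraded. The small nuclear ribonucleoproteins (snRNPs) and the SF3 complex form the core of the spliceosome, while SR proteins and heterogeneous nuclear ribonucleoproteins (hnRNPs) bind the transcript and favour or block nearby splice sites. DEAD-box helicases, whose symbols start with Ddx, remodel RNA and RNA-protein complexes from splicing to translation. Of the Elavl (Hu) proteins, which bind AU-rich sequences and stabilise messages, Elavl1 is found in nearly all cells, whereas Elavl2, Elavl3 and Elavl4 mark neurons. In the developing cortex these factors set splicing programs that differ between dividing progenitors and neurons.

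The genes were chosen by a rule on symbols that uses no measured value, though earlier results of these data were known. A probe was a member where its single gene symbol in the platform annotation starts with Hnrn, Srsf, Sfrs, Snrp, Sf3a, Sf3b or Elavl, or with Ddx and a digit, with Ddx3y left out. This gave 36 genes with 37 probes, out of 6041 genes named by 1 symbol and 6856 probes in all: 9 hnRNP genes, 5 SR protein genes with 6 probes, 8 snRNP genes, 1 SF3 gene (Sf3a2), 9 DEAD-box genes and 4 Elavl genes. Values on all 6 arrays were held by 35 of the 37 probes. Of the 37, 36 probes of 35 genes had the 2 values in each dye orientation that the test needs, and Hnrnpd, with a value on only 3 arrays, was not tested.

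Neocortex RNA came from 6 mouse embryos of embryonic day 14, C57BL/6 background, each a null mutant that the labels describe as synaptically silent. Each was hybridised to a 2-colour array beside wild-type neocortex RNA of the same day and background, from 1 pool of 6 biological replicates. The cy3 dye labelled the mutant RNA on replicates 1 to 3, and cy5 labelled it on replicates 4 to 6. The pool is the only control and is on every array, so that the spread between wild-type animals is not in any test, and the number of arrays limits the precision. In whole neocortex, fewer cells of a type and less RNA per cell cannot be told apart.

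Values are taken as log2 of mutant over pool, positive where the mutant had more of the RNA, but the table gives neither the log base nor the direction. The signs below are therefore those of one reading, and values with replicates 1 to 3 turned are given as the other. Xist, which coats the inactive X chromosome, lay at -3.17 and -2.58 on replicates 5 and 6. This bears on the direction of those arrays if the pool held both sexes. On the other arrays, whose direction is assumed, Xist lay between 0.24 and 0.71. Pearson's correlation over all probes ran from -0.37 to 0.59 between arrays, at 0.36 for replicates 1 and 2, 0.59 for 3 and 4 and 0.21 for 5 and 6, and was -0.20 for replicates 1 and 3, which share a dye orientation. Replicates 3 and 4 stand apart from the rest and were the widest, with standard deviations of 1.09 and 0.62 over all probes, against 0.35 to 0.52 on the other 4. Results are given with and without them. Only ratios were used here, so the labelled tissue could not be checked against the level of its markers, and probe sequences were not used, so that signal shared between close relatives (the Elavl genes, Hnrnph1 and Hnrnph2, Snrpb and Snrpn, Ddx3x and Ddx3y) cannot be told apart.

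None of the splicing and RNA-binding genes passed the test of mutant against pool. An adjusted p under 0.05 in limma was held by 0 of the 36 member probes tested, against a background of 0% over 4958 probes, and the smallest adjusted p of a member was 0.921. At an unadjusted p under 0.05 there was 1 of 36 members, Elavl1, against a background of 1.77%. Estimates lay below 0 for 28 of the 36 probes, against a background of 56.7%, and the median over genes was -0.15, where that of all 4414 named genes was -0.033. This side of 0 rests on replicate 3, without which the median of the members was 0.053, and without replicates 3 and 4 it was 0.13, with 30 of 35 probes above 0 against a background of 62.6%. The median of the members also changed with the processing, at -0.11 after median centring alone. Scaling every array to the same spread after centring put it at 0.0099, with 19 of 36 probes above 0 against a background of 50.4%. Under the other reading 24 of 36 probes lay below 0, against a background of 47%, and the median over genes was -0.062.

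What the members shared was their order over the arrays. Their median was 0.35 on replicate 1 and 0.25 on replicate 2, where 31 and 30 of 36 member probes lay above 0. On replicate 3 it was -0.93 and on replicate 4 -0.47, with 30 of 36 and 27 of 35 probes below 0. It was 0.035 on replicate 5 and -0.13 on replicate 6, with 23 and 9 of 37 probes above 0. The members thus sat high on the first pair of arrays, low on the second, and on the third near 0 on replicate 5 and mostly below 0 on replicate 6.

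All probes moved the same way, and by less on each array except replicate 5. Their medians over the arrays, in the order of the replicate numbers, were 0.047, 0.040, -0.23, -0.13, 0.038 and -0.0049. On replicate 1 the median of the members lay above 86.0% of all probes, on replicate 2 above 83.5%, on replicate 3 below 83.8% and on replicate 4 below 80.3%, so that the members were off centre on each of these 4 arrays on the scale of that array's own probes. On replicate 5 the median of the members lay above 49.6% of all probes, and on replicate 6 below 64.8%.

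Counted probe by probe, 29 of the 35 members with values on both arrays lay above 0 on replicates 1 and 2, against a background of 44.1%. On replicates 3 and 4, 27 of 35 lay below 0 on both, against 52.2%, and 25 of 35 did both, against 33.1%. For 24 of 35 members, both values of replicates 3 and 4 lay below all 4 other values, against 41% of all probes. These shares are descriptions of arrays that have the pool in common. With replicates 1 to 3 turned the same values put the members below 0 on replicates 1 and 2, above 0 on replicate 3 and below 0 on replicate 4.

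**Figure D1:**
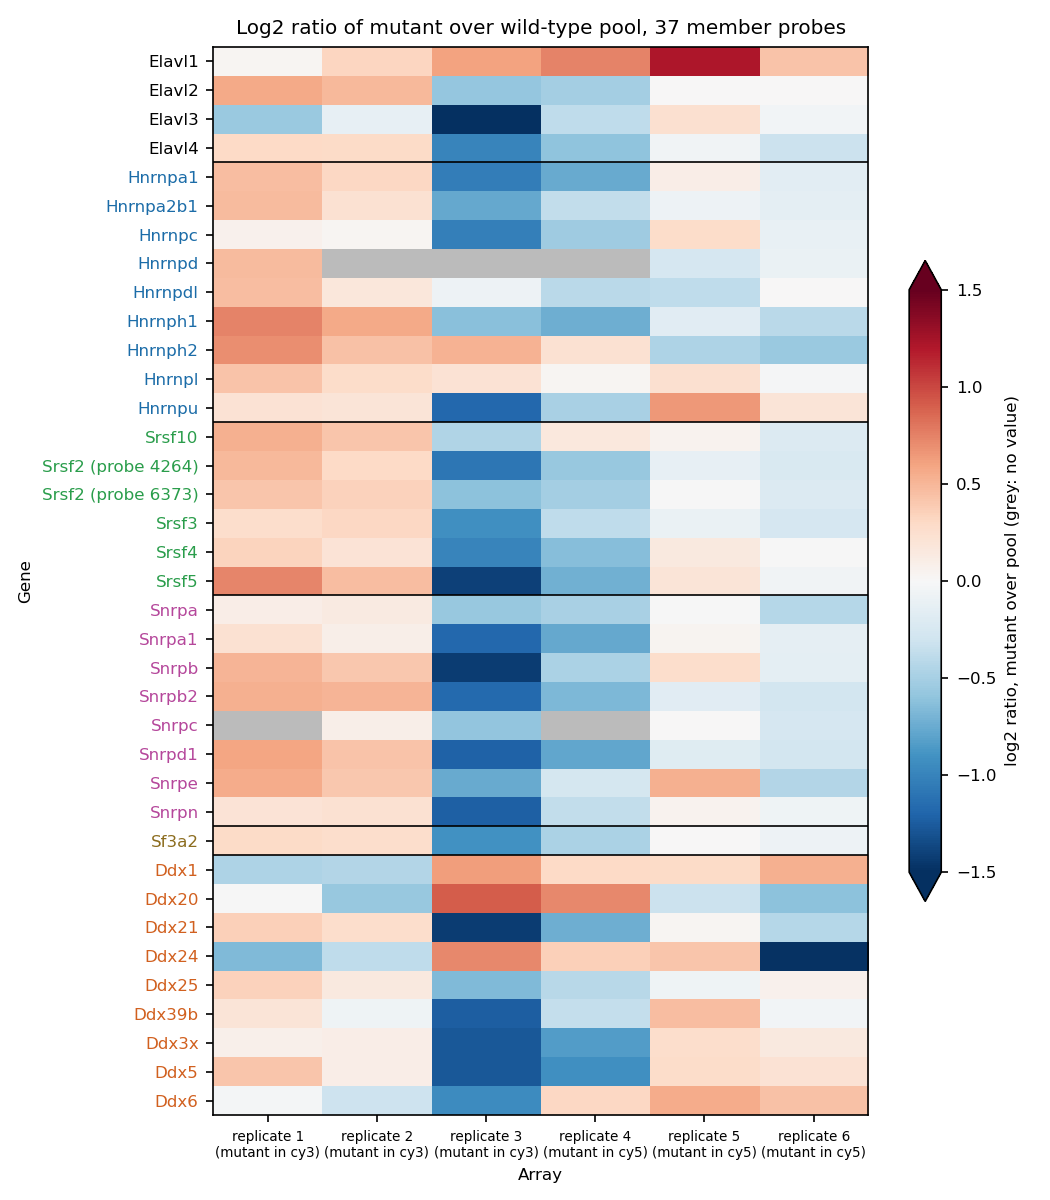
The log2 ratio of mutant over wild-type pool (colour, cut at -1.5 and 1.5; grey where no value) for the 37 member probes (rows, gene names coloured by family) on the 6 arrays (columns). Most rows are red on replicates 1 and 2, blue on replicates 3 and 4 and pale on replicates 5 and 6, while Elavl1 is red on all 6 and Ddx1, Ddx20 and Ddx24 run the other way on the first 4 arrays.

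**Figure D2:**
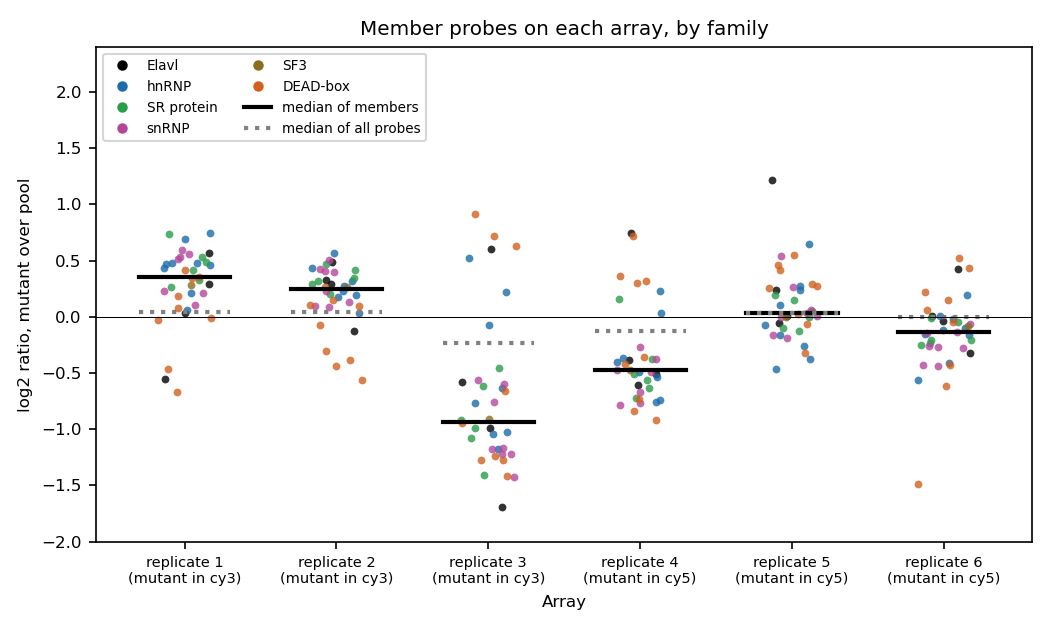
Member probes (points, coloured by family) on each array, with the median of the members (solid bar) and of all probes on that array (dotted bar), as the log2 ratio of mutant over pool. The members' median runs from -0.93 on replicate 3 to 0.35 on replicate 1, and the bars coincide on replicate 5.

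Elavl1 was high on replicates 3 and 4, where most members were low. It lay at 0.033, 0.33, 0.61, 0.75, 1.22 and 0.42 on replicates 1 to 6. Elavl1 was the 1 member of 35 above 0 on all 6 arrays, against a background of 1.06%, and 0 of 35 lay below 0 on all, against 0.372%. Its limma estimate was 0.56 ± 0.15 (SE, n = 6; unadjusted p = 0.00649, adjusted p = 0.921), and 0.50 ± 0.15 without replicates 3 and 4 (SE, n = 4; adjusted p = 0.315). Under the other reading it stood at 0.24, with replicates 1 to 3 then below 0.

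The neuronal Elavl genes followed the order of the other members, with Elavl3 in part apart. Elavl2 lay at 0.57, 0.48, -0.58, -0.51, 0.0041 and 0.0055 on replicates 1 to 6, and Elavl4 at 0.29, 0.29, -0.99, -0.61, -0.052 and -0.32. Both were high on replicates 1 and 2 and low on 3 and 4. Elavl3 lay at -0.55, -0.12, -1.69, -0.38, 0.24 and -0.039, lowest on replicate 3, and above 0 only on replicate 5. The limma estimates were -0.0060 ± 0.18 for Elavl2, -0.42 ± 0.21 for Elavl3 and -0.23 ± 0.20 for Elavl4 (SE, n = 6 each; adjusted p = 0.994, 0.921 and 0.921). Without replicates 3 and 4 they were 0.26, -0.12 and 0.053, so that Elavl2 and Elavl4 changed side.

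Set against the mean of the neuronal genes on the same array, Elavl1 was lower by a little on replicate 1 and higher on the other 5. The difference was -0.069, 0.11, 1.69, 1.25, 1.15 and 0.54 on replicates 1 to 6, with a mean of 0.78 ± 0.70 (SD, n = 6). Elavl1 averaged 0.56 ± 0.41, and the neuronal genes -0.22 ± 0.49 (SD, n = 6 each). Without replicates 3 and 4 the mean difference was 0.43 ± 0.54 (SD, n = 4), smaller than its spread, and with replicates 1 to 3 turned it was 0.20. These genes were set side by side with their values known, so no test is given.

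**Figure D3:**
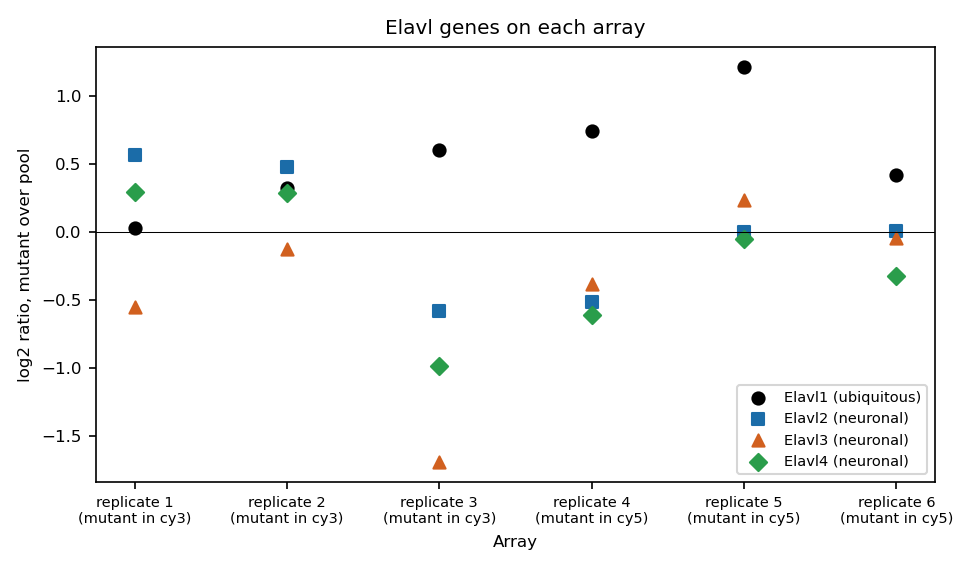
The log2 ratio of mutant over pool (vertical axis) of Elavl1 and the 3 neuronal Elavl genes on each array (horizontal axis), 1 point per gene and array. Elavl1 lies above 0 on all 6 arrays, while Elavl2 and Elavl4 lie above 0 on replicates 1 and 2 and below 0 on replicates 3 and 4, and Elavl3 is lowest, at -1.69, on replicate 3.

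Promoter sequence is shown for 3 members of unlike order over the arrays: Elavl1, Elavl3 and the SR protein gene Srsf5, which was among the lowest on replicates 3 and 4. Each line gives the 120 bases before the annotated start, 5′ to 3′ on the gene's strand, from RefSeq on GRCm38.p6. Capitals mark GGGCGG, known as the GC box, the box with the letters CCAAT, or the letters TATAAA of the TATA box, each searched on both strands; these motifs do not overlap here.
Elavl1 (chr8:4325101-4325220, minus strand): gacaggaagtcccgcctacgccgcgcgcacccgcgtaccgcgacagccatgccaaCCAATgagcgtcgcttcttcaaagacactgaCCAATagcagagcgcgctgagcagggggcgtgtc
Elavl3 (chr9:22052024-22052143, minus strand): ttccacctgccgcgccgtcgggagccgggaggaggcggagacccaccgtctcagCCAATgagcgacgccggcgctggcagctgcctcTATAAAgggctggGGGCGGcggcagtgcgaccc
Srsf5 (chr12:80945379-80945498, plus strand): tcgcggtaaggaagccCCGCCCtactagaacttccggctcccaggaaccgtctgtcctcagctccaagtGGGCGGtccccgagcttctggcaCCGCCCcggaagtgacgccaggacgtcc

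Elavl1 shows 2 CCAAT boxes in this stretch, Elavl3 shows 1 of each motif, and Srsf5 shows 3 GC boxes. Promoter entries were matched for 33 of the 36 member genes, with 54 annotated starts. In the 250 bases before the start, GGGCGG was present at 57.4% of these 54 starts, against 32.7% of all 32851 starts in the table. CCAAT was present at 48.1%, against 33.8%, and TATAAA at 11.1%, against 12.4%. Members with several starts weigh more in these shares, which describe letters and not binding.

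SR proteins bind exonic enhancers through an RNA recognition motif and recruit the spliceosome through a domain rich in arginine and serine. All 6 of their probes lay above 0 on replicates 1 and 2, against 44.1% of all probes. All 6 had a mean below 0 on replicates 3 and 4, as did 2482 of the 3875 probes with values on both. Srsf5 had the widest swing of the family, at 0.74, 0.47, -1.41, -0.72, 0.19 and -0.047 on replicates 1 to 6. Its estimate was -0.13 ± 0.29 (SE, n = 6), or 0.34 ± 0.087 without replicates 3 and 4 (SE, n = 4; limma adjusted p = 0.300).

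The other SR protein genes moved in the same order. Srsf2, a regulator of both splicing and transcript elongation, has 2 probes, which lay at 0.49, 0.29, -1.08, -0.57, -0.13 and -0.23 (probe 4264) and at 0.42, 0.34, -0.62, -0.51, -0.0017 and -0.21 (probe 6373) on replicates 1 to 6. The 2 probes had the same sign on every array and differed most on replicate 3. Srsf3, which also takes part in mRNA export, lay at 0.27, 0.32, -0.92, -0.38, -0.10 and -0.25. Srsf4 lay at 0.33, 0.21, -0.99, -0.63, 0.15 and -0.0085. Srsf10, which acts as a splicing repressor when dephosphorylated, was the exception on replicate 4, with 0.53, 0.42, -0.45, 0.16, 0.052 and -0.20. The estimates of the 2 Srsf2 probes, Srsf3, Srsf4 and Srsf10 were -0.20, -0.097, -0.18, -0.16 and 0.083, and the median of the family was -0.15, or 0.055 without replicate 3 and 0.012 with the arrays scaled.

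Proteins of the snRNPs showed the order with the largest step. The median of the family was 0.51, 0.31, -1.17, -0.49, 0.021 and -0.26 on replicates 1 to 6. All 7 probes with values on both arrays lay above 0 on replicates 1 and 2, against 44.1% of all probes. All 7 with values on both lay below 0 on replicates 3 and 4, against 52.2%. Over 6 arrays 7 of 8 genes had negative estimates, against 56.9% of all named genes. The median estimate was -0.20, or -0.031 with the arrays scaled, 0.048 without replicate 3 and 0.14 without replicates 3 and 4.

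Snrpa and Snrpc encode proteins specific to the U1 snRNP, which binds the splice site at the start of an intron. Snrpa lay at 0.10, 0.14, -0.57, -0.49, -0.0031 and -0.43 on replicates 1 to 6, with an estimate of -0.21 ± 0.14 (SE, n = 6; limma adjusted p = 0.921). Without replicates 3 and 4 it stood at -0.048, while the other 6 snRNP genes tested there lay above 0, as did 62.6% of all probes. Snrpc had values on 4 arrays, 0.092 and -0.59 on replicates 2 and 3 and 0.0065 and -0.26 on the last pair, with an estimate of -0.19. It had too few values to be tested without replicates 3 and 4, and the mean of its other 3 values was -0.053. Snrpa1, a protein of the U2 snRNP, which binds the branch point, lay at 0.23, 0.091, -1.18, -0.77, 0.035 and -0.13, with an estimate of -0.29 ± 0.22 (SE, n = 6).

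Snrpe, a protein of the Sm ring shared by the spliceosomal snRNPs, differed from its family on replicate 5. It lay at 0.56, 0.41, -0.76, -0.27, 0.54 and -0.44, with an estimate of 0.0074 ± 0.22 (SE, n = 6). The Sm proteins Snrpb and Snrpd1, the U2 protein Snrpb2 and Snrpn, an Sm protein of neurons from an imprinted locus, complete the family. On replicate 3 these 4 ranged from -1.42 (Snrpb) to -1.16 (Snrpb2), and on replicates 1 and 2 all of their values lay above 0. Sf3a2, a subunit of the SF3a complex that joins the U2 snRNP, followed them with 0.28, 0.27, -0.91, -0.47, 0.00021 and -0.082, and an estimate of -0.15 ± 0.19 (SE, n = 6).

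The hnRNP genes fell into members with the shared order and a few without it. Hnrnpa1, which represses splice sites, lay at 0.46, 0.32, -1.04, -0.75, 0.10 and -0.16 on replicates 1 to 6. Hnrnpa2b1, known for mRNA transport in neural cells, lay at 0.48, 0.23, -0.77, -0.37, -0.073 and -0.15. Both had the shared order, as did Hnrnpc, which binds runs of U in nascent transcripts, with smaller values of 0.060 and 0.034 on replicates 1 and 2, then -1.03, -0.53, 0.28 and -0.12. Their estimates were -0.18 ± 0.23, -0.11 ± 0.18 and -0.22 ± 0.19 (SE, n = 6 each).

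Hnrnpl and Hnrnph2 did not dip on replicates 3 and 4. Hnrnpl, which binds CA repeats, lay at 0.43, 0.27, 0.22, 0.032, 0.24 and -0.016, with an estimate of 0.20 ± 0.11 (SE, n = 6; limma adjusted p = 0.921). Hnrnph2, an X-linked binder of G runs, lay at 0.69, 0.44 and 0.52 with the mutant in cy3 and at 0.23, -0.47 and -0.56 with the mutant in cy5. Its estimate was 0.14 ± 0.14 (SE, n = 6), and -0.41 ± 0.14 under the other reading (SE, n = 6; adjusted p = 0.972). Its close relative Hnrnph1 did dip, at 0.75, 0.56, -0.63, -0.74, -0.16 and -0.41 on replicates 1 to 6.

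Of the remaining hnRNP genes, Hnrnpu, a nuclear scaffold protein, reached 0.65 on replicate 5 and -1.18 on replicate 3, and Hnrnpdl stayed between -0.40 and 0.47. Hnrnpd, a binder of AU-rich sequences, had 0.48 on replicate 1 and -0.26 and -0.10 on replicates 5 and 6. The median of the family was -0.086, or 0.093 without replicate 3 and 0.047 with the arrays scaled, and without replicates 3 and 4 all 8 tested genes lay above 0, with a median of 0.15, where 62.6% of all probes lay above 0.

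The DEAD-box helicases held members with the shared order and members that ran opposite to it. Ddx5, a cofactor of splicing and transcription, lay at 0.41, 0.10, -1.27, -0.92, 0.27 and 0.22 on replicates 1 to 6, and Ddx3x, which acts in translation initiation, at 0.075, 0.10, -1.27, -0.84, 0.26 and 0.15. Both were below 0 only on replicates 3 and 4, and their estimates of -0.20 and -0.25 turned to 0.25 and 0.15 without those arrays. Ddx21, a helicase of ribosomal RNA synthesis, lay at 0.36, 0.27, -1.42, -0.73, 0.029 and -0.43, with an estimate of -0.32 ± 0.25 (SE, n = 6), the lowest of the family. Ddx39b, a helicase of the spliceosome and of mRNA export, lay at 0.19, -0.070, -1.24, -0.36, 0.46 and -0.042. Ddx25, a helicase known from testis, had the shared order with -0.66 and -0.42 on replicates 3 and 4.

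Ddx1, Ddx20 and Ddx24 ran opposite to the other members on the first 4 arrays. Ddx1, a helicase of tRNA ligation, lay at -0.46, -0.44, 0.63, 0.30, 0.29 and 0.53. Ddx20, a partner of the SMN complex that assembles snRNPs, lay at -0.011, -0.56, 0.91, 0.72, -0.32 and -0.62, the highest of the members on replicate 3. Ddx24 lay at -0.67, -0.39, 0.72, 0.36, 0.42 and -1.48. Together with Elavl1, Hnrnpl and Hnrnph2, these are the 6 members above 0 on both replicates 3 and 4, where the background is 26.5%. Without replicates 3 and 4 Ddx20 stood at -0.38 ± 0.12 (SE, n = 4; limma adjusted p = 0.321). Ddx6, which represses and degrades mRNA in P-bodies, was low with the mutant in cy3, at -0.032, -0.31 and -0.95, and higher in cy5, at 0.32, 0.55 and 0.44. Its estimate was 0.0032 ± 0.15, and 0.43 ± 0.15 under the other reading (SE, n = 6 each; adjusted p = 0.972).

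**Figure D4:**
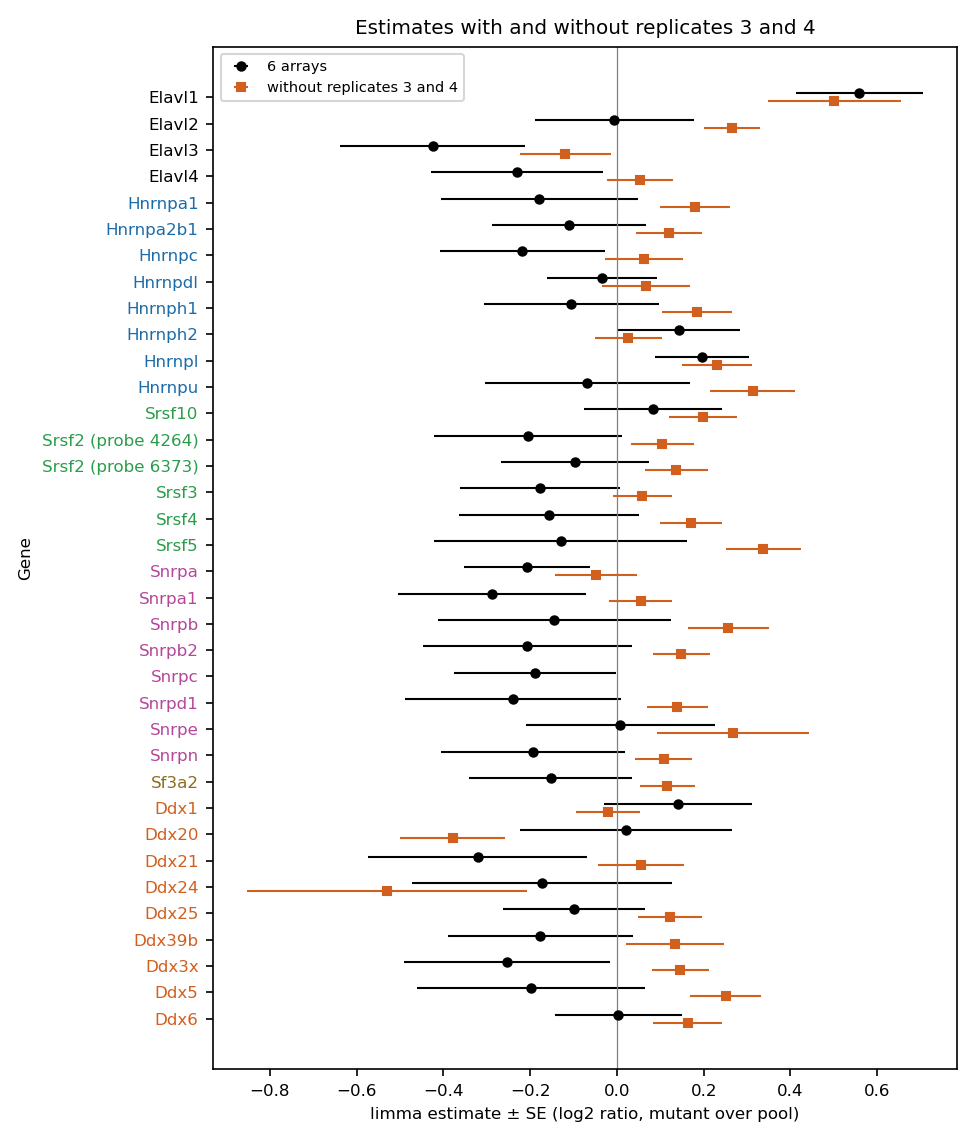
The limma estimate with its standard error (horizontal axis, log2 ratio of mutant over pool) for the 36 tested member probes, over all 6 arrays (black circles) and without replicates 3 and 4 (orange squares; Snrpc had too few values). Most estimates lie below 0 over 6 arrays and above 0 without replicates 3 and 4, with Elavl1 at 0.56 and 0.50 and Hnrnpl above 0 in both.

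The dye orientations were compared in the same fit. Over 6 arrays 0 of 36 members passed in limma (background 0%), and Ddx6 and Hnrnph2 were the 2 at an unadjusted p under 0.05, against a background of 4.6%. Replicate 3, with the mutant in cy3, had a member median of -0.93, unlike 0.35 and 0.25 on the other cy3 arrays. The side of 0 rests on single arrays: 24 of 36 estimates (cy5 minus cy3) lay below 0 over 6 arrays, against 47.0% of all named genes. It was 11 of 36 without replicate 1 (42.6%), 14 of 35 without replicate 2 (42.7%) and 17 of 36 without replicate 4 (44.5%). It was 29 of 35 without replicate 3 (54.3%), 27 of 35 without replicate 5 (49.8%) and 22 of 35 without replicate 6 (45.8%). Without replicates 3 and 4, 0 of 35 passed, and 14 of 35 had an unadjusted p under 0.05, against a background of 23.4%. In that fit 27 of 35 probes were lower with the mutant in cy5, against a background of 52.2%. For 23 of 35 members both values of replicates 1 and 2 lay above both values of replicates 5 and 6, against 32% of all probes. The smallest of these limma p-values belonged to Hnrnph2, with a difference of -1.08 (cy5 minus cy3; adjusted p = 0.146). A dye effect and an effect of the mutation read with the wrong sign on 1 orientation cannot be told apart in these values. Without replicates 3 and 4, differences between the embryos of both pairs, such as sex, cannot be told apart from these either. Xist lay at 0.61 and 0.71 on replicates 1 and 2 and at -3.17 and -2.58 on replicates 5 and 6.

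For the mutant effect without replicates 3 and 4, 0 of 35 member probes passed (background 0.0212%), and 8 had an unadjusted p under 0.05, against a background of 13.6%. All of these but Ddx20 had positive estimates, and the smallest unadjusted p was that of Elavl2, 0.0112, with an estimate of 0.26 ± 0.064 (SE, n = 4; limma adjusted p = 0.300). Leaving out those arrays and turning replicates 1 and 2 gave 14 of 35 with an unadjusted p under 0.05, against 23.4%, with 0 passing (background 0%) and a median over genes of -0.16.

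Other splicing and RNA-binding genes were taken from a list of 150, of which 68 had a probe and 67 were tested. In limma 0 passed (background 0%), 2 had an unadjusted p under 0.05, against a background of 1.77%, and 25 lay above and 42 below 0, with a median of -0.053, where 56.7% of all probes lay below 0. With the arrays scaled the side turned, to 47 above and 20 below 0 and a median of 0.041, where 50.4% of all probes lay above 0. It turned too without replicates 3 and 4, to 52 above and 15 below 0 and a median of 0.13, where 62.6% of all probes lay above 0. In that fit 19 of the 67 had an unadjusted p under 0.05, against a background of 13.6%, and 0 passed, with a smallest adjusted p of 0.148. Their medians on replicates 1 to 6 were 0.22, 0.16, -0.42, -0.29, 0.12 and -0.078, high and low on the same arrays as those of the members. Ppig, a cyclophilin of nuclear speckles, lay at 0.11, 0.29, 0.57, 0.35, 0.48 and 0.72 on replicates 1 to 6 and had the smallest p above 0, with an estimate of 0.42 (unadjusted p = 0.00985, adjusted p = 0.921). Msi1, an RNA-binding protein of neural progenitors, lay at 0.28, 0.30, 0.48, 0.70, 0.46 and -0.14, above 0 on 5 of 6 arrays. Fxr2, Clk4 and Syncrip followed, with estimates of 0.33, 0.64 and 0.23, the value of Clk4 resting on 2.04 and 1.49 on replicates 3 and 4.

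On the lower side of this list stood Rbm3 and Cirbp, RNA-binding proteins induced by cold, with -0.93 and -0.86 (Rbm3) and -0.96 and -0.47 (Cirbp) on replicates 3 and 4. Their estimates of -0.33 and -0.22 were -0.053 and 0.036 without those arrays. Caprin1, Dhx9 and Rbm4 completed the 5 with the smallest p below 0, at -0.38, -0.16 and -0.16. Caprin1 was near 0 on 5 arrays, from -0.29 to 0.17, and at -2.06 on replicate 6.

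Markers of cell types moved over the arrays as well. Of 12 neuron markers 9 were tested, with 8 below 0 and a median estimate of -0.14, where 56.7% of all probes lay below 0. Of the 9, 6 lay above 0 without replicates 3 and 4, with a median of 0.021, where 62.6% of all probes lay above 0. Their medians were -0.049, 0.17, -0.88, -0.30, 0.060 and -0.077 on replicates 1 to 6, low on replicates 3 and 4 as the members were. The medians of the 10 progenitor markers were 0.36, 0.35, -0.21, 0.051, 0.0011 and -0.17, high on replicates 1 and 2 as the members were. Of the 10, 6 had positive estimates, where 56.7% of all probes lay below 0. Without replicates 3 and 4 it was 9 of 10, where 62.6% of all probes lay above 0. Of the meninges and vessel markers 5 of 8 were tested, with medians from -0.41 on replicate 1 to 0.40 on replicate 6, and of the blood markers 2 of 5, with medians from -0.17 to 0.018. Of 6 microglia markers 3 were tested, with 1 above and 2 below 0 and a median estimate of -0.048. On replicate 3, 1 of the 2 with values lay above 0, with a median of 2.28. On replicate 4 it was 2 of 3, with a median of 1.24. Medians on the other arrays ran from -0.17 to 0.088. No marker passed, and the part of these cell types, or of the width of replicates 3 and 4, in the values of the members was not tested.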

How the data were processed

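The authors deposited 1 table of log2 ratios, with base 2 assumed here since the table names none; how the arrays were scanned, background-corrected and normalised was not given in the sources used here. Arrays had 4396 to 5678 values each and means within 0.01 of 0. A natural logarithm would multiply every value by a constant. Gene names came from the platform annotation, where 6269 probes have 1 symbol, 6 several and 581 none; all 36 member genes matched RefSeq (GRCm38.p6) by gene identifier.

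Where each dye orientation gave a probe 2 or more values, limma 3.58.1 (R 4.3.3; lmFit, then eBayes) fitted an intercept for the mutant effect and a term for orientation, two-sided, with Benjamini-Hochberg adjustment over all 4958 probes and a threshold of 0.05. Medians of lists are over genes, with probes of a gene averaged, except that medians of all members and of all probes on an array are over probes. The fit was tested on simulated data.

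Members, lists and tests were chosen with earlier results of these data known. The named genes are all Elavl genes, members of 1 sign on all arrays, the 3 smallest p per family and side, genes with 2 probes, the 3 highest and 3 lowest on replicates 3 and 4, and 5 per side of the other list; further members are named for completeness, with values seen. Robust moderation used statmod 1.5.0. Per the labels the embryos are biological replicates. The targeted gene is not reported here.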

Additional observations from a re-analysis of the deposited data

Results flagged for a closer look

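Caprin1, a protein of stress granules and neuronal RNA granules, was the 1 gene with an array far from the others by Dixon's test for a single outlying value. It lay at -2.06 on replicate 6, a gap of 0.80 of its whole range, while its other 5 values lay between -0.29 and 0.17. Chance flags about 1 in 20 groups of values, and 47 probes, medians and differences were tested. None of the named member probes, the family medians or the difference between Elavl1 and the neuronal Elavl genes had such an array.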

How the results depend on the processing

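The count of 0 member probes past the threshold held under every alternative run: replicates 1 to 3 turned, no dye term, median centring, median centring with scaling, complete probes, robust moderation, array weights (0.10 and 0.31 on replicates 3 and 4, 1.40 to 4.01 on the others), averaging per gene, an adjusted p of 0.1, each replicate left out, and replicates 3 and 4 left out. In most of these fits an unadjusted p under 0.05 was held by 1 to 3 members, and by 1.14% to 4.6% of all probes. With array weights it was 5 of 36 members, where 12.1% of all probes had one. Without replicates 3 and 4 it was 8 of 35, where 13.6% had one. The counts of 0 for orientation and for the other splicing list also held where run. For orientation, members with an unadjusted p under 0.05 numbered 2 over 6 arrays, where 4.6% of all probes had one. They numbered 18 of 36 with array weights (27.3% of all probes, smallest limma adjusted p = 0.0552) and 15 of 35 without replicate 3 (12.9%). There were 5 of 36 with scaling (11.5%), 1 without replicate 1 (2.55%), and 0 without replicate 5 (2.41%) or 6 (1.71%). On the other splicing list, genes with an unadjusted p under 0.05 for the mutant effect numbered 2 over 6 arrays (1.77% of all probes). They numbered 13 of 67 with array weights (12.1%) and 19 of 67 without replicates 3 and 4 (13.6%). Turning replicates 1 and 2 together with leaving out 3 and 4 was chosen after seeing the data. No fit could be had there for Snrpc, and the filter on dim probes was not run. No paired analysis was possible because the arrays hold 1 group, each against the same pool.

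Estimates of single genes changed side of 0 without passing in any fit. The counts are over up to 38 probes named by the selection rules above, from the members and the other splicing list together. They are not over the 37 member probes. Without replicates 3 and 4, 19 of 37 changed side: Ddx1 at -0.021, Ddx20 at -0.38, Ddx21 at 0.056, Ddx39b at 0.13, Ddx3x at 0.15, Ddx5 at 0.25, Elavl2 at 0.26, Elavl4 at 0.053, Hnrnpa1 at 0.18, Hnrnpa2b1 at 0.12, Hnrnpc at 0.063, Sf3a2 at 0.12, Snrpa1 at 0.055, Srsf2 at 0.10 (probe 4264) and 0.14 (probe 6373), Srsf3 at 0.058, Srsf4 at 0.17, Srsf5 at 0.34 and Cirbp at 0.036. The tested members outside these counts were Ddx25, Hnrnpdl, Hnrnph1, Hnrnpu, Snrpb, Snrpb2, Snrpd1 and Snrpn. All of them also changed side there, from below to above 0, with estimates between 0.067 (Hnrnpdl) and 0.31 (Hnrnpu). Array weights gave 16 of 38: Ddx1 at -0.0010, Ddx20 at -0.38, Ddx39b at 0.058, Ddx3x at 0.092, Ddx5 at 0.17, Elavl2 at 0.23, Elavl4 at 0.011, Hnrnpa1 at 0.12, Hnrnpa2b1 at 0.082, Hnrnpc at 0.0068, Sf3a2 at 0.086, Srsf2 at 0.061 and 0.098, Srsf3 at 0.036, Srsf4 at 0.12 and Srsf5 at 0.26. With replicates 1 to 3 turned it was 16 of 38: Ddx20 at -0.092, Ddx39b at 0.20, Ddx3x at 0.11, Ddx5 at 0.054, Elavl3 at 0.36, Hnrnpc at 0.093, Hnrnph2 at -0.41, Hnrnpl at -0.11, Snrpc at 0.063, Snrpe at -0.064, Srsf10 at -0.081, Msi1 at -0.0063, Fxr2 at -0.29, Clk4 at -0.21, Cirbp at 0.094 and Rbm4 at 0.11. Scaling gave 8: Ddx20 at -0.20, Ddx5 at 0.0099, Elavl2 at 0.17, Hnrnpa1 at 0.011, Hnrnpa2b1 at 0.022, Srsf2 probe 6373 at 0.042, Srsf4 at 0.012 and Srsf5 at 0.14. Median centring alone gave 1, Elavl2 at 0.034. Turning replicates 1 and 2 without 3 and 4 gave 15 of 37: Ddx20 at -0.091, Ddx39b at 0.075, Ddx3x at 0.059, Elavl3 at 0.22, Hnrnpc at 0.016, Hnrnph2 at -0.54, Hnrnpl at -0.12, Snrpe at -0.22, Srsf10 at -0.27, Msi1 at -0.064, Fxr2 at -0.32, Clk4 at -0.18, Syncrip at -0.0040, Cirbp at 0.020 and Rbm4 at 0.035. Leaving out each replicate in turn changed the side of 17, most often without replicate 3: Ddx1 from -0.039 to 0.23, Ddx20 from -0.18 to 0.19, Ddx24 from -0.38 to 0.14, Ddx39b from -0.32 to 0.039, Ddx5 from -0.36 to 0.056, Ddx6 from -0.096 to 0.13, Elavl2 from -0.11 to 0.18, Hnrnpa1 from -0.32 to 0.059, Hnrnpa2b1 from -0.23 to 0.077, Sf3a2 from -0.25 to 0.045, Snrpe from -0.14 to 0.21, Srsf10 from -0.0087 to 0.24, Srsf2 from -0.35 to 0.041 and from -0.19 to 0.069, Srsf3 from -0.28 to 0.025, Srsf4 from -0.28 to 0.052 and Srsf5 from -0.33 to 0.20. The cause was not tested.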
